A study of Mus musculus with 10 samples.

Results

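The comparison described here is that of Sox17+/- with wild type gallbladder in C57BL/6 (B6) mouse embryos at 15 days post coitum (dpc), taken on its own 4 arrays, the samples numbered 3 and 4 of each genotype. They are 4 of the 10 samples of the series. B6 is an inbred strain. Each genotype had 2 biological replicates, per the series design, and no label gives the litter, the sex, the number of embryos in a sample or a description of the Sox17 allele. The p-values therefore measure the spread between these samples, which may be in part technical. The 4 gallbladder samples of ICR, an outbred stock, of the same stage and the same 2 genotypes, share no array with B6 and serve below as separate samples. The remaining 2 samples, wild type cystic duct of ICR, are compared with nothing. Like the ICR gallbladder arrays, they bear on the main B6 fit only in the choice of the probe set that reads each gene. Some alternative settings of the B6 fit, given near the end, also take in these arrays. RNA was hybridised to Affymetrix arrays whose probe sets each read a transcript. Values below are log2 signals after quantile normalization, differences are on the log2 scale, and levels of different genes are not comparable on this scale.

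Sox17 is a transcription factor of the SOXF group that binds DNA through an HMG box. In the foregut endoderm it sets apart the progenitors of the gallbladder and cystic duct from those of the pancreas and liver, and embryos with a single working copy are known for gallbladder hypoplasia and biliary defects. Hedgehog ligands such as Shh are secreted by gut epithelium and received by the mesenchyme around it, where Ptch1 is receptor and target, and Hhip binds and limits the ligands.

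The arrays read transcripts of epithelium, smooth muscle and liver. The epithelial genes Epcam, Krt8, Krt18, Krt19 and Cdh1 and the smooth muscle genes Acta2, Actg2, Tagln, Myh11 and Des were above the filter on dim genes (5.19 log2) in all 4 arrays. So were the liver genes Alb, Afp, Ttr and Apoa1, with overlapping groups, and Alb ran from 13.79 to 14.28. Where 4 values follow each other below, they are those of wild type 3 and 4, then Sox17+/- 3 and 4. In bulk tissue, fewer cells of a type and less RNA per cell cannot be told apart. Sox17+/- replicate 3 stood apart in skeletal muscle transcripts, with the embryonic myosin Myh3 at 10.11 against 6.10 in Sox17+/- replicate 4, and 4.82 and 4.73 in wild type. The 2 wild type arrays correlated at r = 0.995 over the 12735 genes tested and differed by more than 1 log2 unit in 21 of them, and the Sox17+/- pair at r = 0.990 with 95 such genes. For the RNA integrity control Gapdh, the 3' probe set minus the 5' one gave 0.0014 and 0.16 in wild type and 0.21 and 0.30 in Sox17+/-. That of Actb was 0.92, 1.05, 1.06 and 1.20, so both controls were higher in Sox17+/-, and the part of this in the results was not tested.

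Sox17 itself fell. Its signal was 9.30 and 9.05 in wild type and 8.03 and 7.91 in Sox17+/-, so the groups did not overlap. The difference was -1.20 (SE 0.11, limma adjusted p = 0.0157), which puts Sox17+/- at 43.5% of the wild type level (95% interval 36.1 to 52.3). Its other probe set, whose oligonucleotides may match further transcripts, gave -1.31. Of 12 measured genes that flank Sox17 in the RefSeq annotation, 0 passed in limma (0.306% of all genes tested). An unadjusted p under 0.05 was found in 2 of them (10.9% of all genes tested). The changes of the 12 ran from -0.43 to 0.11 with a median of -0.05.

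Sox17+/- gallbladder of B6 lost transcripts of the ligand Shh, the coregulator Cited1 and the enzyme Mgam, and gained transcripts of the protease Cym and the secreted protein Wfdc18. By limma at an adjusted p under 0.05, 24 genes fell and 15 rose, together 39 of 12735 tested (0.306%, with 0.188% lower and 0.118% higher). The groups did not overlap in any of the 39, as they did not in 42.1% of all genes tested. The sizes ran from 0.61 upwards with a median of 1.30 log2, while the median change over all genes was 0.0040. The number of calls rested on single arrays. It was 0 without wild type replicate 3, 9 without wild type replicate 4, 247 without Sox17+/- replicate 3 and 409 without Sox17+/- replicate 4. In each of these fits 1 genotype has a single array, which is assumed to vary like the pair of the other genotype, so passing again in them is no sign of stability. With the probe set of a gene chosen on the B6 arrays alone the calls were 61, including the 39. Each of the 39 kept its sign in every setting in which it was tested. With arrays centred on their medians in place of quantile normalization the calls were 11 higher and 28 lower.

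**Figure D1:**
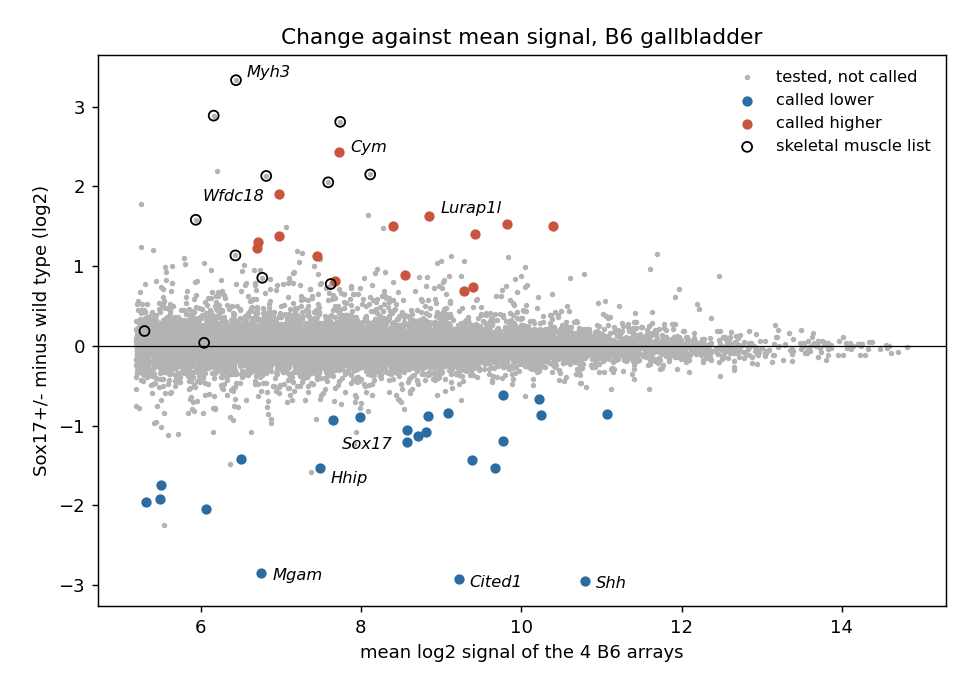
Change in B6 gallbladder (Sox17+/- minus wild type, log2, vertical axis) against the mean log2 signal of the 4 arrays (horizontal axis) for the 12735 genes tested. Blue points are the 24 genes called lower, red points the 15 called higher, and open circles the 12 tested skeletal muscle genes, which reach 3.33 (Myh3) without being called.

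Among secreted signals, Shh fell furthest. It stood at 12.27 and 12.29 in wild type and at 9.13 and 9.52 in Sox17+/-. The lower wild type value thus lay well clear of the higher Sox17+/- value. The difference was -2.95 (SE 0.12, a 7.74-fold fall, limma adjusted p = 0.00181). Hhip, the Hedgehog-binding membrane protein, stood at 8.32, 8.18, 6.43 and 6.997 and fell by 1.53 (SE 0.19, adjusted p = 0.0410), and its other probe set above the filter gave -1.36. Igfbp2, a secreted binding protein of insulin-like growth factors, stood at 10.03, 10.18, 8.54 and 8.81 and fell by 1.43 (SE 0.11, adjusted p = 0.0119). In each of these genes the 2 arrays of a genotype lay closer together than the genotypes.

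Among nuclear proteins, Cited1, a coregulator that works through the CBP and p300 acetyltransferases, fell nearly as far as Shh. It stood at 10.71 and 10.66 in wild type and 7.42 and 8.09 in Sox17+/-, a fall of 7.62-fold (-2.93, SE 0.20, limma adjusted p = 0.00674). The Sox17+/- arrays differed from each other more than the wild type arrays did. Pou2af1, a coactivator of POU factors known from B cells, stood at 8.19, 8.06, 7.17 and 7.21 (-0.93, adjusted p = 0.0262). Nr5a2, a nuclear receptor that acts on bile acid synthesis genes in liver, stood at 9.60, 9.43, 8.56 and 8.78 (-0.85, adjusted p = 0.0499), and its 2 other probe sets above the filter gave -0.63 and -1.24. Nr5a2 therefore sits at the edge of the threshold, with probe sets of 1 sign.

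Enzymes made up the next group. Mgam, the maltase-glucoamylase of the brush border, stood at 8.24 and 8.12 in wild type and 5.20 and 5.47 in Sox17+/-, a fall of 7.20-fold (-2.85, SE 0.14, limma adjusted p = 0.00201). Cyp2f2, a cytochrome P450 known from airway club cells, stood at 7.33, 6.86, 5.05 and 5.05 (-2.04, SE 0.18, adjusted p = 0.0151). Cyp4x1, a further cytochrome P450, stood at 6.66, 6.10, 4.74 and 4.53 (-1.74, SE 0.21, adjusted p = 0.0406). The Sox17+/- signals of both P450 genes lay under the filter, so these genes were tested through their wild type level. Aldh1a7 fell by 1.53 (10.33, 10.55, 8.74 and 9.07) and its close paralog Aldh1a1, a retinaldehyde dehydrogenase, by 0.86 (10.75, 10.60, 9.78 and 9.85), both past the threshold in limma. Probe sets of such near-identical genes can read each other's transcript, so the share of each is uncertain. Ugt2b34, a glucuronosyltransferase of a multigene family, fell by 0.86, Ddc, the aromatic amino acid decarboxylase, by 0.87, and Cers6, a ceramide synthase, by 1.05. Cers6 had the tightest pairs of these, 9.10 and 9.10 against 8.04 and 8.06.

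The remaining falls were spread over other roles. S100g, the calcium-binding protein calbindin-D9k, stood at 6.43, 6.17, 4.47 and 4.21 (-1.96, SE 0.17, limma adjusted p = 0.0145). Jakmip2 stood at 6.47, 6.43, 4.29 and 4.77 (-1.92, SE 0.19, adjusted p = 0.0174), and Cox7a1, a subunit of cytochrome c oxidase, at 7.41, 7.02, 5.83 and 5.76 (-1.42, SE 0.16, adjusted p = 0.0262). S100g and Jakmip2, too, passed the filter through their wild type level. Igsf1, an immunoglobulin superfamily membrane protein, fell by 1.20, the solute carrier Slc35g1 by 1.08, and the Wnt receptor Fzd7 by 0.67. D930028M14Rik (-0.89) and Gm16551 (-0.61), also called lower, are gene models with no role given. Called genes outside the 12 of largest change in each direction are named after their values were seen, and so is Pmch. Pmch, the precursor of melanin-concentrating hormone, differed by a similar amount without passing (7.16, 6.18, 4.51 and 4.33, a difference of -2.25, limma adjusted p = 0.0555), with its Sox17+/- signals under the filter and wild type arrays further apart than in the falls given by array above.

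**Figure D2:**
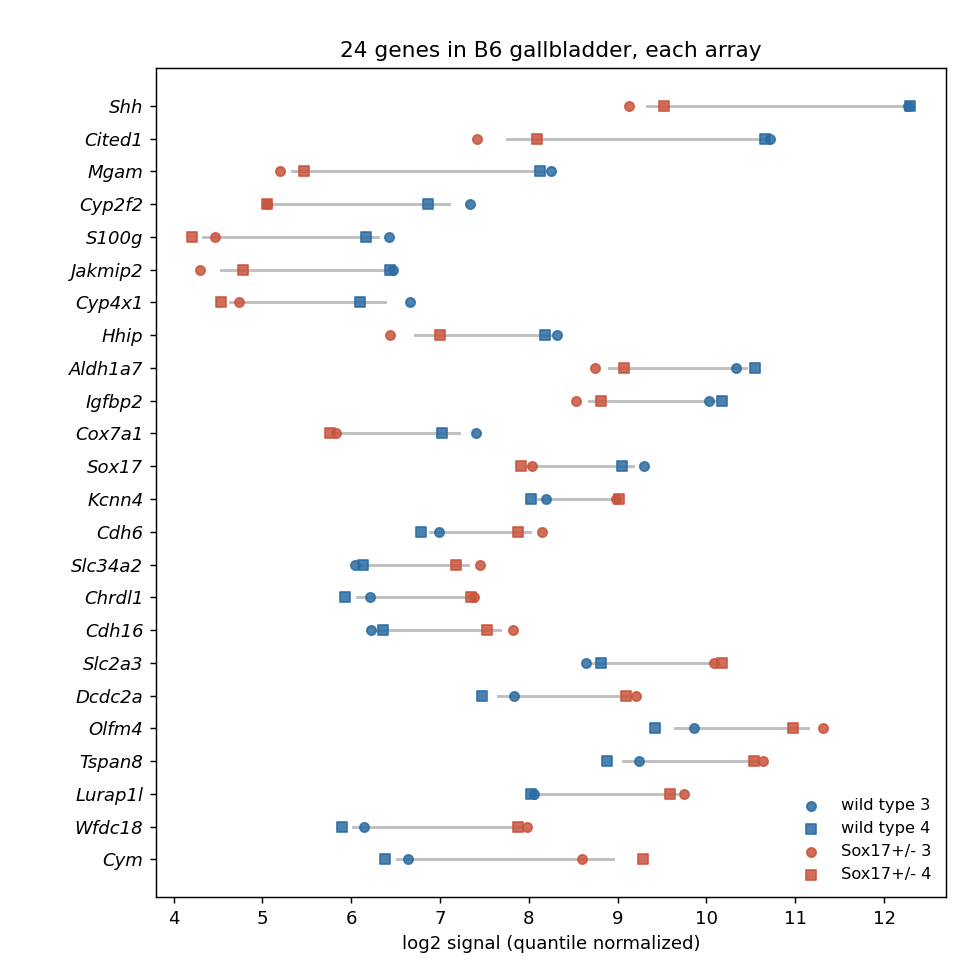
Log2 signal (horizontal axis) in each of the 4 B6 arrays of the 12 called genes of largest change per direction, Sox17 among those lower. Wild type is in blue and Sox17+/- in red, with circles for replicate 3 and squares for replicate 4. The grey line joins the group means. In all 24 genes both arrays of a genotype lie on the same side of the other genotype, which was a condition of the choice.

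Among genes that rose, Cym changed most. Cym, the stomach protease chymosin, stood at 6.64 and 6.38 in wild type and 8.60 and 9.28 in Sox17+/-, a 5.39-fold rise (2.43, SE 0.22, limma adjusted p = 0.0157). Wfdc18, a small secreted protein with a whey acidic protein domain, stood at 6.15, 5.89, 7.98 and 7.87 (1.91, SE 0.13, adjusted p = 0.00673). Olfm4, a secreted glycoprotein known from intestinal crypts, stood at 9.86, 9.42, 11.31 and 10.97 (1.50, SE 0.17, adjusted p = 0.0274). The groups were again well apart, by more than either pair differed within itself. Chrdl1, a secreted antagonist of BMP ligands, rose by 1.30 (6.21, 5.93, 7.38 and 7.35), and its 2 other probe sets above the filter gave 0.81 and 1.16.

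Cell surface proteins and transporters followed. Tspan8, a tetraspanin, stood at 9.24, 8.87, 10.64 and 10.53 (1.53, SE 0.12, limma adjusted p = 0.0131), and all 4 of its other probe sets above the filter were higher too, by 0.74 to 1.47. The cadherins Cdh16 and Cdh6, both known from kidney epithelium, rose by 1.38 (6.22, 6.36, 7.82 and 7.53) and 1.13 (6.99, 6.79, 8.15 and 7.88), though a second probe set of Cdh6 gave 0.31. Tspan12 rose by 0.81. Slc2a3, the glucose transporter GLUT3, stood at 8.64, 8.81, 10.09 and 10.18 (1.41, SE 0.09, adjusted p = 0.00634), and Slc34a2, a sodium phosphate cotransporter, at 6.04, 6.13, 7.45 and 7.18 (1.23, adjusted p = 0.0262). Kcnn4, a calcium-activated potassium channel, rose by 0.89. Among other genes, Lurap1l stood at 8.06, 8.03, 9.74 and 9.59 (1.62, SE 0.09, adjusted p = 0.0033), Dcdc2a, a doublecortin domain protein of primary cilia, rose by 1.50 (7.83, 7.47, 9.21 and 9.09), and the actin-associated adaptor Sorbs2 rose by 0.74. A second probe set of Dcdc2a gave 0.39. With all probe sets of a gene averaged, Lurap1l stood at 0.83 (limma adjusted p = 0.148) and the calls were 22, of which 20 were among the 39.

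SOX proteins share the HMG core ACAAT, read as ATTGT on the other strand, and it was searched in the 250 bases before each gene start of the RefSeq table (GRCm38.p6). Entries were found for 31 of the 39 called genes, with 41 promoters, of which 8 (19.5%) held the core, against 18.2% of the 13109 promoters of all genes tested and 27.7% of all 32851 promoters. By direction, 3 of 27 promoters of genes that fell and 5 of 14 of genes that rose held it. The share was thus close to that of the tested genes. The 4 promoters below are shown because they belong to genes of largest change that hold the core, marked in capitals, and a match of these letters is not a binding site. They lie at chr11:83708754-83709003, plus strand (Wfdc18), chr4:80910436-80910685, plus strand (Lurap1l), chr6:40628581-40628830, plus strand (Mgam) and chrX:162964600-162964849, minus strand (S100g).
Wfdc18: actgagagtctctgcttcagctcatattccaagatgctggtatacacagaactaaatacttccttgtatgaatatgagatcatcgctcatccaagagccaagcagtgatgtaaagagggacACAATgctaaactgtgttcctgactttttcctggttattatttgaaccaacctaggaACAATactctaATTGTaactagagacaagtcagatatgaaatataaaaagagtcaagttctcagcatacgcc
Lurap1l: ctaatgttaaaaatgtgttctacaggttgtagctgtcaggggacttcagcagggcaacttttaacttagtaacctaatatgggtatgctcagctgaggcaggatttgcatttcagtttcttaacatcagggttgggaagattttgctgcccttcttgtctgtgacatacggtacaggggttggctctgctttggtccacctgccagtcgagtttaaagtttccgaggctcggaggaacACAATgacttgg
Mgam: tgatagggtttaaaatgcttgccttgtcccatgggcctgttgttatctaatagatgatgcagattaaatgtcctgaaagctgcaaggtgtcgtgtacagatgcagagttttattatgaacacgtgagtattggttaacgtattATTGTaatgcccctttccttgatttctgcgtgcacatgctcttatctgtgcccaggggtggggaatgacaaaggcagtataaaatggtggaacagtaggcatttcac
S100g: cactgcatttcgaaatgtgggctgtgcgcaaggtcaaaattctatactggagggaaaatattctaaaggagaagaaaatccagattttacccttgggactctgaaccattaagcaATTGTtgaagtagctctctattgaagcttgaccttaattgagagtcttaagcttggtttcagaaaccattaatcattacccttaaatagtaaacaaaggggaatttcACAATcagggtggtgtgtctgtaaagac
Wfdc18 holds 3 copies and S100g 2, and Lurap1l and Mgam hold 1 each, so the core is present before genes of either direction.

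Of 18 Hedgehog pathway genes tested, 2 were called, Shh and Hhip, against 0.306% of all genes tested. The list split evenly, with 9 genes above 0 and 9 below, and its median of 0.0090 was near that of all genes (0.0040). The other ligands were Ihh at 6.30, 5.95, 5.47 and 5.70 (-0.54, limma adjusted p = 0.326) and Dhh at 6.04, 6.03, 6.31 and 6.32 (0.28, adjusted p = 0.459). The receptor and target Ptch1 stood at 11.16, 11.10, 10.82 and 11.11 (-0.17, adjusted p = 0.626) and the effector and target Gli1 at 7.53, 7.58, 7.30 and 7.60 (-0.10, adjusted p = 0.831), both named for their role. In Ptch1 and Gli1 Sox17+/- replicate 3 was below wild type and replicate 4 was above the lower or both wild type arrays. Without Sox17+/- replicate 3 Gli1 stood at 0.05.

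Of 21 measured transcription factors of the foregut and biliary tree, Sox17 not counted, 13 passed the filter and 0 were called. All 13 lay above 0, 10 with groups that did not overlap (background for higher 20.7%), and the median was 0.35. Of the 21 with a value, 18 lay above 0 and 3 below. Hhex, needed for the biliary bud, stood at 9.66, 9.35, 10.41 and 10.29 (0.84, limma adjusted p = 0.0553). Pdx1, the pancreas and duodenum factor, stood at 4.67, 4.59, 6.05 and 5.70 (1.25, adjusted p = 0.0537), with its wild type signals under the filter and its other probe set at -0.02. Sox9, a factor of ducts and progenitors, stood at 6.63, 6.01, 8.18 and 7.43 (1.49, adjusted p = 0.137), and its other probe sets gave 0.86 and, at a dim signal, 0.02. Onecut2, a factor of biliary differentiation, stood at 0.41 (adjusted p = 0.277). Without an array, or with the mean of probe sets, the list's median ran from 0.19 to 0.44. Among Sox17's relatives and partners, Sox18 stood at 0.34, Sox7 at 0.26, Sox4 at 0.35 and Sox11 at -0.62, and 0 of the 5 tested were called. With the mean of their probe sets Sox7 stood at 0.24, Sox4 at 0.54 and Sox11 at -0.77.

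Epithelial genes moved in both directions. Of 20 biliary epithelium genes tested, 2 were called higher (Tspan8 and Cdh6) and 1 lower (Cited1), against 0.118% and 0.188% of all genes tested. Of the 20, 10 lay above and 10 below 0, and the median was -0.00030. The lists were chosen with earlier results of these data known, so calls within them are no separate evidence. The tight junction claudin Cldn7 stood at 9.71, 9.58, 9.27 and 9.24 (-0.39, limma adjusted p = 0.148). Of 12 secreted genes of stomach and duct, Cym and Wfdc18 rose, 9 lay above 0, 6 did not overlap upwards and 0 downwards (20.7% and 21.4% of all genes), and the median was 0.56. Of all 19 measured, 13 lay above 0 and 6 below, and without the filter the median was 0.21. Clu, the secreted chaperone clusterin, stood at 11.36, 10.88, 12.40 and 12.13 (1.15, adjusted p = 0.0638), and Tff2, a trefoil peptide of stomach mucus, at 0.54 (adjusted p = 0.179). The median of the 12 was 0.27 without Sox17+/- replicate 3 and 0.86 without replicate 4. Cym and Wfdc18 were put on this list with results of these data known, so its direction is no separate evidence. Of 11 genes of biliary transport and bicarbonate secretion, 0 were called and 8 lay above 0, with the carbonic anhydrase Car2 at 11.66, 11.57, 12.07 and 12.59 (0.72, adjusted p = 0.171), the sodium bicarbonate cotransporter Slc4a4 at 0.72 and the phospholipid transporter Abcb4 at 0.54.

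The contractile genes of the muscular gallbladder wall were lower in small steps. Of 20 tested, 18 lay below 0 and 14 did not overlap downwards (background for lower 21.4%), 0 were called, and the median was -0.19. Cckar, the cholecystokinin receptor of the gallbladder, stood at 8.79, 8.15, 7.40 and 7.40 (-1.07, limma adjusted p = 0.125), Synpo2, an actin-bundling protein, at 9.07, 8.78, 8.02 and 8.25 (-0.79, adjusted p = 0.0940), and the smooth muscle myosin Myh11 at 10.49, 10.22, 9.68 and 9.79 (-0.62, adjusted p = 0.0934). In each of these the groups did not overlap, and a dim second probe set of Myh11 gave -0.0077. Myl9, a myosin light chain, stood at -0.31, the smooth muscle actins Actg2 at -0.32 and Acta2 at -0.18, and the actin-binding Tagln at -0.18. Without any 1 of the 4 arrays the list's median ran from -0.26 to -0.16. Of 20 fibroblast and matrix genes 0 were called, 10 lay on each side of 0, and the median was -0.01.

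Transcripts of other cell types differed between single arrays more than between genotypes in the case of muscle. Of 22 measured skeletal muscle genes 12 passed the filter, 3 of them through 1 group alone, and 21 of the 22 lay above 0. Relative to the wild type mean, the 12 tested genes had a median of 3.21 in Sox17+/- replicate 3 and 0.67 in replicate 4, and of -0.05 and 0.05 in wild type. Myh3 differed by 3.33 (SE 1.12, limma adjusted p = 0.369), Tnnc2, a fast troponin, by 2.89 (adjusted p = 0.361) and Actc1, an actin of embryonic muscle, by 2.15 (adjusted p = 0.295), and 0 were called. The summed linear signal of the list was 999.7, 991, 8668 and 1437. Without Sox17+/- replicate 3 the median was 0.78 and Myh3 stood at 1.33, with its wild type signals under the filter. The defining factor Myog was at 4.32 and 4.37 in wild type and 6.15 and 5.46 in Sox17+/-, and Myod1 stayed under the filter in all 4 arrays. The part of muscle transcripts in the other results was not tested.

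Of 12 erythroid genes tested all lay above 0 and 8 did not overlap (20.7% of all genes upwards), 0 were called, and the median was 0.79. Klf1, the erythroid Krüppel-like factor, stood at 8.78, 8.74, 9.45 and 10.19 (1.06, limma adjusted p = 0.162), Hemgn at 9.55, 9.55, 10.22 and 10.87 (0.99, adjusted p = 0.135) and the red cell antigen Ermap at 8.84, 8.78, 9.44 and 9.93 (0.88, adjusted p = 0.114). Relative to wild type the list stood at 0.34 in Sox17+/- replicate 3 and 1.16 in replicate 4, the reverse order of the muscle genes. Its median was 0.34 without replicate 4. The embryonic globin Hbb-y overlapped between groups (10.84, 12.13, 10.94 and 12.61).

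Mpo, the myeloperoxidase of neutrophil granules, was the leukocyte gene that rose, from 8.87 and 9.01 to 9.66 and 9.60 (0.69, limma adjusted p = 0.0410). Over all genes tested, 0.118% were called higher. Of 18 leukocyte genes tested 14 lay above 0, 10 did not overlap upwards and 3 downwards (20.7% and 21.4% of all genes), and the median was 0.12, or 0.25 without Sox17+/- replicate 4, with the granule protease Prtn3 at 0.58 (adjusted p = 0.141). Their summed signal was 19140 and 18320 in wild type and 27760 and 20280 in Sox17+/-, while the defining genes Ptprc and Csf1r stood at 0.15 and -0.01. Of 18 hepatocyte genes 0 were called, and 2 did not overlap upwards and 1 downwards, below the shares over all genes (20.7% and 21.4%). Their median was 0.16, but 0.45 without wild type replicate 3 and -0.14 without wild type replicate 4.

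**Figure D3:**
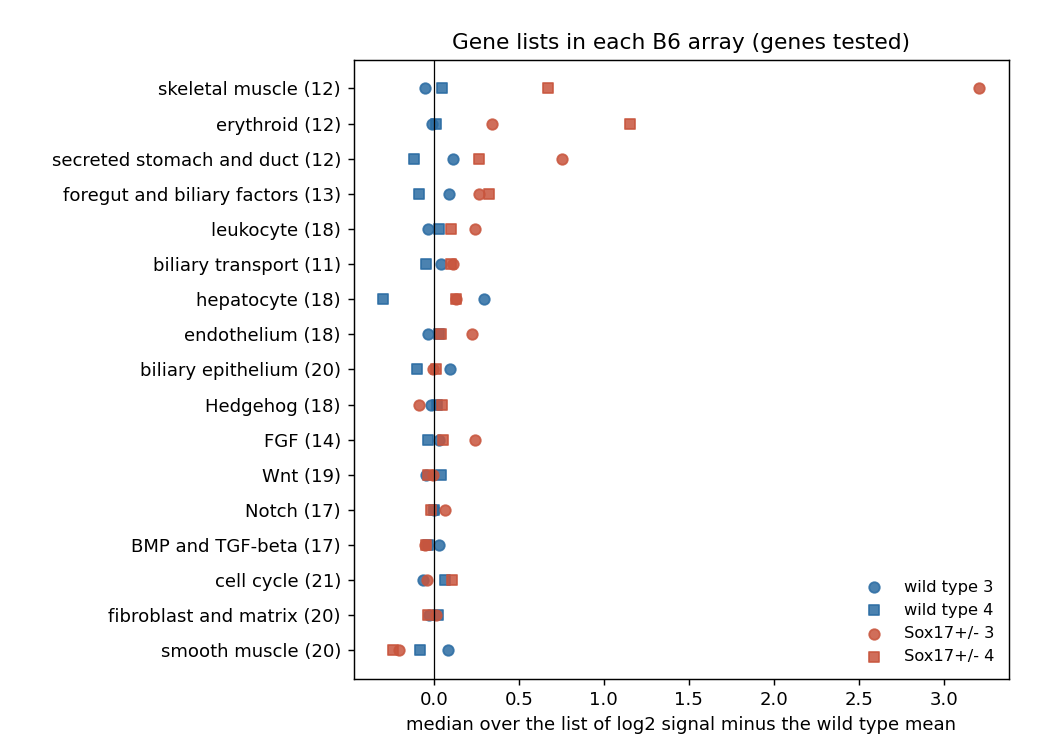
Median over the tested genes of each list (number in brackets) of log2 signal minus the wild type mean, in each B6 array, with wild type in blue, Sox17+/- in red, circles for replicate 3 and squares for replicate 4. Skeletal muscle stands at 3.21 in Sox17+/- replicate 3 and 0.67 in replicate 4, erythroid genes at 0.34 and 1.16, and smooth muscle genes below wild type in both.

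Signalling lists other than Hedgehog held few calls, as did all genes tested (0.306%). By limma, an unadjusted p under 0.05 was found in 10.9% of all genes tested. It was found in 5 of 14 FGF, 6 of 17 BMP and TGF-beta, 1 of 17 Notch and 4 of 19 Wnt genes. In the insulin-like growth factor list it was 2 of 11, and in the NF-kB list 3 of 11. Of 14 FGF pathway genes 0 were called and 11 lay above 0 (median 0.12), with the receptors Fgfr3 at 8.21, 8.04, 8.88 and 8.71 (0.67, limma adjusted p = 0.0831) and Fgfr2 at 10.19, 10.18, 10.56 and 10.57 (0.38, adjusted p = 0.0889), and the inhibitor Il17rd at -0.43. With the mean of their probe sets Fgfr3 stood at 0.21 and Fgfr2 at 0.04. Of 17 BMP and TGF-beta genes 0 were called, with the ligands Bmp5 at -0.62 and Tgfb2 at -0.35 and the activin antagonist Fst at -0.32. With the mean of their probe sets Bmp5 stood at -0.57, Tgfb2 at -0.07 and Fst at -0.29. Of 17 Notch genes 0 were called, and the target Hey1 stood at 8.40, 8.14, 7.87 and 7.73 (-0.47, adjusted p = 0.229). Of 19 Wnt genes tested 0 were called, with the ligand Wnt7b at -0.34 and the R-spondin Rspo3 at -0.38. Igfbp2 was the 1 called gene of 11 in the insulin-like growth factor list. Igfbp1 stood at 10.01, 8.56, 10.64 and 10.15 (1.11, limma adjusted p = 0.434), higher without overlap but with wild type arrays far apart. Among 11 NF-kB and inflammation genes 0 were called, with the inhibitor Tnfaip3 at 8.25, 7.99, 7.35 and 7.43 (-0.73, adjusted p = 0.0934) and the chemokine Cxcl12 at 10.91, 10.94, 11.32 and 11.25 (0.36, adjusted p = 0.0934). The 21 cell cycle genes had 0 calls and a median of 0.03.

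ICR gallbladder gave the same measure in samples outside the B6 fit, although all 10 arrays entered the choice of probe sets. All 39 genes had the same sign there, compared with 54.7% of all genes tested. With probe sets chosen on the B6 arrays alone it was 60 of 61. Of the 24 genes that fell in B6, 23 were lower in ICR without overlap (background 21.6%), and of the 15 that rose, 14 were higher without overlap (background 17.6%). The exceptions, Ugt2b34 and Mpo, had overlapping groups in ICR. The median change of the genes that fell was -1.20 in both strains, and that of the genes that rose was 1.38 in B6 and 1.05 in ICR, while over all genes tested the ICR median was -0.02. In ICR, Shh stood at 11.79 and 11.78 in wild type and 8.44 and 8.64 in Sox17+/-, Cited1 at 10.89 and 11.01 against 7.58 and 7.75, and Cym at 6.16 and 7.69 against 10.10 and 10.40. By limma on the 4 ICR arrays alone 2 genes passed (0.0157% of those tested). The ICR wild type pair correlated at r = 0.954 with 612 genes over 1 log2 unit apart, against 19 in the B6 wild type pair under the same normalization. The Sox17+/- pairs were more alike, at r = 0.9825 with 123 such genes in ICR and r = 0.9896 with 89 in B6. The B6 pairs were known to be the tightest of the series when this comparison was defined, so their tightness is no separate result.

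**Figure D4:**
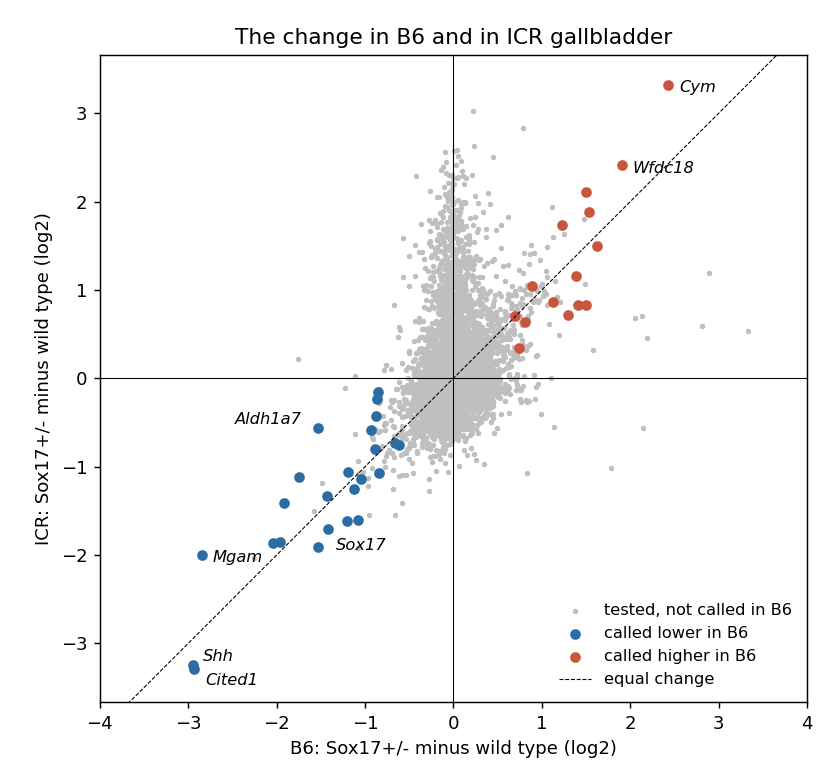
Log2 change (Sox17+/- minus wild type) in ICR (vertical axis) against that in B6 (horizontal axis) for the 12735 genes tested, with the 24 genes called lower in B6 in blue, the 15 called higher in red, and a dashed line of equal change. All 39 called genes lie in the 2 quadrants of equal sign, and Aldh1a7 is further from 0 in B6 (-1.53) than in ICR (-0.56).

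The difference of the change between strains was tested over the 8 gallbladder arrays. By limma 0 of 12735 genes passed, with a smallest adjusted p of 0.824, and 696 (5.47%) had an unadjusted p under 0.05. Of the 39 called genes 3 were among these. For Aldh1a7 the B6 minus ICR difference was -0.97 (95% interval -1.79 to -0.16), for Aldh1a1 it was -0.61 (-1.04 to -0.19) and for Slc35g1 0.53 (0.07 to 0.99), all with a limma adjusted p of 0.824. Without ICR wild type replicate 2 the count was 558, of which 553 were lower in B6, and without ICR wild type replicate 1 it was 1. The hepatocyte list stood at a median of 0.16 in B6, with a sign that turned without wild type replicate 4, and 1.32 in ICR, and the skeletal muscle list at 1.81 in B6 and 0.28 in ICR.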

How the data were processed

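The values the authors deposited are on a log2 scale, 1 per probe set and array, and run from 2.20 to 15.15. The method that made them is not given in the sources used here, and precision is limited by how few arrays there are. RNA was Trizol-extracted and biotin-labelled, per the labels' protocols. Groups come from titles and strain labels, since the records give stage under the genotype tag and the reverse. The members of this comparison and the 29 gene lists were chosen with earlier results of these data known.

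Of 45101 probe sets, 64 controls were left out, 34945 had 1 gene in the platform annotation (34741 found in RefSeq, GRCm38.p6), 932 several and 9160 none. For each of 18193 genes the probe set of highest mean over all 10 arrays was taken, with a cross-hybridizing type only in the absence of others. The 4 B6 arrays were quantile normalized (deposited medians 5.51 to 5.56). Genes under the 30th percentile of their mean (5.19) were left out. Limma 3.58.1 (R 4.3.3) fitted Sox17+/- minus wild type with a variance trend (2 residual and 6.50 total degrees of freedom), and Benjamini-Hochberg adjustment covered all 12735 genes, at a threshold of 0.05. An exact two-sided permutation test of 2 against 2 cannot go below p = 0.333. The strain difference was fitted on the 8 gallbladder arrays, and the ICR change on the 4 ICR arrays alone.

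Named genes are Sox17, up to 12 called genes per direction by size, skipping numbered gene models, and up to 4 per list by p. Lists are described by counts and medians, without a test. One called gene is not reported here by name. The scripted fits were tested on simulated data. Python 3.11.15 with pandas 2.3.3 and matplotlib 3.10.9 made the tables and plots.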

Additional observations from a re-analysis of the deposited data

Results flagged for a closer look

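For 5 of the named genes both Sox17+/- arrays lay on opposite sides of wild type in the 2 strains. Of all genes tested, 20.7% were higher without overlap in B6 and 21.6% lower without overlap in ICR. The share with both was not counted, so the 5 are not read as a result about these genes. Fzd1, a Wnt receptor, was higher in B6 (9.69 and 9.87 in wild type, 10.17 and 10.08 in Sox17+/-). In ICR it was lower by a narrow margin (10.32 and 10.29 against 10.23 and 10.20). Its B6 minus ICR difference was 0.443 (95% interval 0.14 to 0.75, limma adjusted p = 0.824). Tcf21, a factor of visceral mesenchyme, showed the same pattern (9.75 and 9.81 against 9.94 and 10.16 in B6, 10.45 and 10.31 against 10.27 and 10.30 in ICR). Its difference was 0.367 (95% interval 0.02 to 0.71, limma adjusted p = 0.824). The B6 minus ICR difference was 0.331 for the mesenchymal factor Meis2 (95% interval -0.04 to 0.70), 0.333 for the endothelial Egfl7 (-0.10 to 0.77) and 0.193 for Igfbp4 (-0.04 to 0.43), also higher in B6 and lower in ICR. None of the 5 differences passed over all genes.

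Probe sets with no listed gene were not part of the comparison by gene. Tested among all 31526 probe sets above the filter, 2 of 4317 such probe sets passed. The probe set 1454660_at stood at 9.34 and 9.14 in wild type and 7.38 and 7.16 in Sox17+/- (-1.97, limma adjusted p = 0.0273), and 1438989_s_at stood at 8.87, 8.59, 9.93 and 10.10 (1.29, adjusted p = 0.0429). Groups of 2 arrays are too small to single out an outlying array by rule.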

How the results depend on the processing

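The count of 39 calls was within 1.5 times of itself with the values as deposited, centred medians, normalization over all 10 arrays, no filter or one at the 50th percentile, array weights, and every probe set on its own (29 to 55). It was 22 with probe sets of a gene averaged, 61 with the probe set of highest mean in B6, 8 without a variance trend, 5 in a fit of the 8 gallbladder arrays, 1 (Cited1) in a fit of all 10 arrays, and 0 to 409 without an array of B6. A replicate block gave 98, including all 39. The numbers are not taken to pair samples, since no label says so. Over the 12735 genes tested, replicate 3 minus replicate 4 in wild type correlated at 0.24 with the same difference in Sox17+/-. What this correlation reflects was not tested. Sox17 stayed lower throughout, and missed the threshold without a trend (-1.20, adjusted p = 0.0622) and in the fits of 8 (-1.20, adjusted p = 0.0892) and 10 arrays (-1.19, adjusted p = 0.762) by limma. Without an array it ran from -1.33 to -1.08 and missed without either wild type array (adjusted p = 0.148 and 0.0817). The median ICR change of the called genes, signed so that the B6 direction is positive, was 1.14. It was 1.40 as deposited, 1.64 with means of probe sets, 1.93 without a trend, 1.90 and 3.27 in the fits of 8 and 10 arrays, 0.92 with the replicate block, and 0.28 to 1.86 without an array of B6, with no value without wild type replicate 3, where 0 genes were called. The strain difference gave 0 calls in every setting except those without an array (0 to 558). With probe sets averaged Col14a1, a collagen of the lists, turned to -0.015 and Igfbp4 to -0.013, and Gli1 ran from -0.252 to 0.0465 without an array. The cause of these shifts was not tested. The 2 residual degrees of freedom limit precision, as does signal near background for dim genes.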

Other observations

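Of 18 endothelial genes tested in B6, 16 lay above 0 and 7 did not overlap upwards (20.7% of all genes). By limma 0 were called and 1 had an unadjusted p under 0.05 (10.9% of all genes), and the median was 0.14. That median was 0.04 without Sox17+/- replicate 3 and 0.22 without replicate 4. Of 12 mesothelium genes 0 were called, and the retinaldehyde dehydrogenase Aldh1a2 stood at 8.44 and 8.30 in wild type and 7.41 and 7.79 in Sox17+/- (-0.77, limma adjusted p = 0.131). The forkhead factor Foxf1, a Hedgehog-responsive factor of gut mesenchyme, stood at 10.31, 10.28, 9.93 and 10.25 in B6 (-0.21, adjusted p = 0.571) and at -0.88 in ICR. Its second probe set gave -0.51 in B6. The B6 minus ICR difference of 0.675 did not pass over all genes (limma adjusted p = 0.824).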
